A study of Mus musculus with 20 samples.

Results

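The collagen genes of primary mouse renal tubular epithelial cell cultures were described across 20 RNA sequencing libraries. The collagens were every gene of the deposited count table whose symbol has the form Col, a number, a, a number (Col1a1, Col4a3 and so on), which took 44 of 55891 genes. They were split by the kind of assembly their protein forms into 11 fibrillar collagens, 6 basement membrane collagens (the type IV chains) and 27 other collagens. The cultures came from mice of the strain B6.129-Ptprz1tm1Nmo, which carry a targeted allele of Ptprz1, the gene of a receptor-type protein tyrosine phosphatase. Cells homozygous for it (KO) were set against heterozygous cells (het), which the series uses as its Ptprz1-expressing comparator, so all 4 groups carry at least 1 targeted allele. Each genotype was cultured for 24 h with LPS at 100 ng/mL and IFNγ at 10 ng/mL, or left untreated as control, with 5 libraries in each of the 4 groups. LPS activates Toll-like receptor 4 and IFNγ the JAK-STAT pathway, and the design asks how the cells respond to this inflammatory stimulus with and without the phosphatase. All cultures were grown in medium with 10% serum and growth factors, and the labels give no age of the animals.

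Collagens are secreted as triple helices of 3 chains and are assembled outside the cell. Fibrillar chains such as those of types I, III and V build the fibres of interstitial matrix and are the hallmark product of fibroblasts and myofibroblasts in a scarring kidney. Type IV chains form the network of basement membranes, with Col4a1 and Col4a2 in the ubiquitous network and Col4a3, Col4a4 and Col4a5 in the network of the glomerulus and part of the tubule. Cultured tubular cells are known to lose epithelial features with time and to make matrix.

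The type IV genes lie in head-to-head pairs, and the promoter windows of 4 of them are shown because the level of chains that share a promoter region is compared further on. Col28a1 is shown because it was called higher with the stimulus in both genotypes in 1 of the fits below. The windows are RefSeq sequences of the mouse build GRCm38.p6, 250 bases before and 50 bases after the annotated start, read 5′ to 3′ on the strand of the gene. Capitals mark matches, on either strand, to CCAAT (the CCAAT box), GGGCGG (a GC box), TATAAA (the TATA box) and TTCNNNGAA (the palindrome of STAT binding sites); matches to different motifs did not overlap in these 5 windows. Col4a1 lies at chr8:11312777-11313076 on the minus strand and Col4a2 at chr8:11312555-11312854 on the plus strand. Col4a6 lies at chrX:141474027-141474326 on the minus strand and Col4a5 at chrX:141475169-141475468 on the plus strand. Col28a1 lies at chr6:8192568-8192867 on the minus strand.
Col4a1: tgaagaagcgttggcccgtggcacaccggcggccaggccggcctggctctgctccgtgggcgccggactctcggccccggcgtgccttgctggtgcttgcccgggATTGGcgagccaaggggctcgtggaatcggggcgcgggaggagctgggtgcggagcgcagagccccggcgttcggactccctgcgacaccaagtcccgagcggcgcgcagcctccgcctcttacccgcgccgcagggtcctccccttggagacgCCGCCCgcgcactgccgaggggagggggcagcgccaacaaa
Col4a2: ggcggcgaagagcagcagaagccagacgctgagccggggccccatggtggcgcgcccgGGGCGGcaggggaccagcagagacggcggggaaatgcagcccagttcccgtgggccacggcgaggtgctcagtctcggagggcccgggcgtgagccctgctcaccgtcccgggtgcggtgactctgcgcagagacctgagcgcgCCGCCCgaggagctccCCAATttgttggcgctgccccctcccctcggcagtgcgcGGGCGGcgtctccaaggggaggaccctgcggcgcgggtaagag
Col4a5: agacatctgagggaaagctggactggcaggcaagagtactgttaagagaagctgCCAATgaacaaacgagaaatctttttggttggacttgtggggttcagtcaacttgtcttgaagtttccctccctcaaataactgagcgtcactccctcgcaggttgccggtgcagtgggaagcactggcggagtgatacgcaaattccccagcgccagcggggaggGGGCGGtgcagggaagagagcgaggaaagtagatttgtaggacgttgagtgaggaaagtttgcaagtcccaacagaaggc
Col4a6: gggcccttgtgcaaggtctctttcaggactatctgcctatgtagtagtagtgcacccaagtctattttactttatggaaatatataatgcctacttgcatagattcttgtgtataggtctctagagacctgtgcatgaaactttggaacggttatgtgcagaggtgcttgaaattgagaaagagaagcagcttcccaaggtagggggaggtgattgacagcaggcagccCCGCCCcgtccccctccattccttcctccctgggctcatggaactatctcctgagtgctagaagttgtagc
Col28a1: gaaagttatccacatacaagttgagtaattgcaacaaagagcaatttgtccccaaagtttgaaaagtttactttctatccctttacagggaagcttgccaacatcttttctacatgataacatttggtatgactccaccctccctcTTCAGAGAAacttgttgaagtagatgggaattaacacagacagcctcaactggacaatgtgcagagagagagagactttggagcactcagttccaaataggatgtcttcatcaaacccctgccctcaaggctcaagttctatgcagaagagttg

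The Col4a1 and Col4a2 starts were 21 bases apart on chromosome 8, so that 78 bases belonged to both windows. The Col4a5 and Col4a6 starts were 1343 bases apart on the X chromosome and their windows shared 0 bases. Both Col4a1 and Col4a2 held CCAAT and GGGCGG. The GGGCGG of the Col4a1 window was the same genomic site as the last GGGCGG of the Col4a2 window, inside the shared bases. Col4a5 held both motifs as well, and Col4a6 held GGGCGG alone of the 4 motifs. Col28a1 held TTCNNNGAA alone of the 4. Of the 35 collagens with a window in the RefSeq table, 13 held CCAAT, 22 held GGGCGG, 5 held TATAAA and 2 (Col28a1 and Col6a5) held TTCNNNGAA. Over all 32851 windows of the table the shares were 37.4%, 35.7%, 13.6% and 8.3% in the same order. A match describes the letters of the window and is not evidence that a factor binds there.

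Ptprz1 itself could not check the genotype labels, because it was near the limit of detection in every group. It had 8 counts in KO LPS+IFNγ, 7 in KO control, 9 in het LPS+IFNγ and 7 in het control libraries, with 0 counts in 11 of 20 libraries and at most 7 in any. The libraries held 12899528 to 20411411 counts, so a count of 0 allows a level of up to 0.147 to 0.233 counts per 1000000 (CPM) depending on the library. Levels below are CPM scaled by TMM, a factor that corrects library size for composition.

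Several libraries stood apart before any collagen was considered. The labels name 10 animals, each with 1 LPS+IFNγ and 1 control library, and list animals 5 and 7 under both genotypes. In animals 4 (het) and 8 (KO) the interferon response went against the labels. Nos2, the inducible nitric oxide synthase, was 0 CPM in both of their libraries labelled LPS+IFNγ and 82.9 and 203 CPM in those labelled control, while in the other 8 animals it was 1233 to 3512 CPM with LPS+IFNγ and at most 0.219 CPM in control. The counts of called collagens for the stimulus are therefore given with and without animals 4 and 8. The labelled cell type was checked by Pax8 (134 to 381 CPM) and Pax2, renal epithelial transcription factors present in all 20 libraries. The epithelial genes Cdh1, Epcam and Krt8 were at most 1.69, 0.937 and 7.04 CPM in animals 2, 6 and 10, against at least 18.8, 14.0 and 56.4 CPM in the other animals. Animals 1 and 9, both het, held the highest levels of proximal tubule markers (summed 244 to 942 CPM, against 25.8 to 169 CPM elsewhere), the highest leukocyte marker sums (66.2 to 302 CPM, against 4.16 to 21.8 CPM) and the lowest smooth muscle and pericyte sums (303 to 2023 CPM, against 2920 to 13660 CPM).

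Collagen transcripts made up between 0.256% and 2.94% of a library, with a median of 1.28%. Basement membrane collagens were the larger class in most libraries, at 0.11% to 1.34% of all counts. Fibrillar collagens spanned a far wider range, 0.0186% to 1.84%, and the 27 other collagens stayed between 0.0791% and 0.18%. The lowest collagen share was in the het LPS+IFNγ library of animal 1 and the highest in the het control library of animal 7, where fibrillar chains made up most of it.

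**Figure D1:**
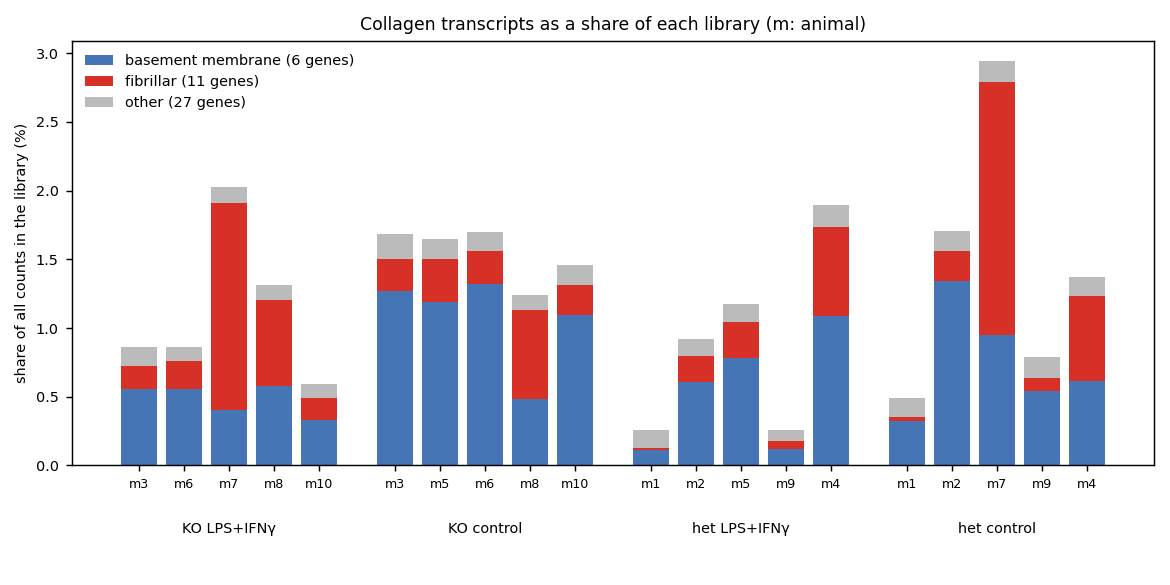
Share of all counts (%) taken by basement membrane, fibrillar and other collagens in each of the 20 libraries, stacked, by group and animal (m). The 2 libraries of animal 7 reached 2.03% and 2.94%, and those of animals 1 and 9 lay between 0.256% and 0.79%.

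Of the 44 collagens, 25 averaged at least 1 CPM and 13 at least 100 CPM. Per kilobase of exon the leading chains were Col4a1 at 550 CPM per kb, Col4a2 at 331, Col1a1 at 243 and Col18a1 at 125 CPM per kb, as means over all 20 libraries. Col6a6 and Col13a1 had 0 counts in all 20 libraries. A further 10 collagens (Col6a4, Col8a2, Col24a1, Col25a1, Col17a1, Col9a2, Col26a1, Col6a5, Col19a1 and Col9a1), with means of at most 0.299 CPM, were too low to pass the filter on low counts, so that 32 members (10 fibrillar, 6 basement membrane, 16 other) could be tested. In bulk RNA, fewer cells of a type and less RNA per cell cannot be told apart.

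Col4a1 and Col4a2 encode the chains of the ubiquitous basement membrane network. Col4a1 was 3171, 3300, 2136, 3219 and 1814 CPM in the KO LPS+IFNγ libraries, replicates 1 to 5, and 7185, 7578, 8292, 2771 and 5967 CPM in the KO control libraries. It was 650, 3655, 4745, 534 and 6178 CPM in het LPS+IFNγ and 1589, 8599, 5061, 2250 and 3476 CPM in het control libraries. The 4 KO control libraries of animals other than 8 lay above every KO LPS+IFNγ library, while the het groups overlapped. Col4a2 was 1937, 2036, 1412, 1346 and 1145 CPM in KO LPS+IFNγ and 3743, 3520, 4282, 1357 and 3596 CPM in KO control libraries. In het cells Col4a2 was 274, 2250, 2843, 240 and 3085 CPM with LPS+IFNγ and 795, 4201, 2923, 1208 and 1663 CPM in control. As for Col4a1, animals 1 and 9 were lowest in both het groups. Per kilobase, Col4a1 exceeded Col4a2 in all 20 libraries, by 1.34 to 2.12 times.

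Col4a3 and Col4a4, neighbouring genes of the glomerular basement membrane network, varied more. Col4a3 was 188, 57.8, 164, 566 and 20.4 CPM in KO LPS+IFNγ and 694, 441, 219, 326 and 106 CPM in KO control libraries. It was 29.5, 76.2, 197, 75.8 and 564 CPM in het LPS+IFNγ and 197, 279, 496, 586 and 273 CPM in het control libraries. The highest value of each LPS+IFNγ group was in the libraries labelled so of animals 8 and 4. Col4a4 was 184, 80.4, 167, 315 and 34.2 CPM in KO LPS+IFNγ and 507, 332, 225, 205 and 116 CPM in KO control libraries. In het cells Col4a4 was 21.1, 101, 192, 47.9 and 476 CPM with LPS+IFNγ and 175, 267, 394, 398 and 244 CPM in control. Here too the library of animal 8 or 4 was highest among those labelled LPS+IFNγ.

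Col4a5, which joins Col4a3 and Col4a4 in their network, and Col4a6, its neighbour on the X chromosome, varied less between libraries. Col4a5 was 214, 250, 201, 286 and 312 CPM in KO LPS+IFNγ and 335, 442, 375, 228 and 422 CPM in KO control libraries. It was 168, 267, 321, 191 and 347 CPM in het LPS+IFNγ and 238, 416, 318, 359 and 281 CPM in het control libraries, a range of 2.63-fold over all 20 libraries. The KO groups overlapped only through the control library of animal 8, and the het groups overlapped with and without animal 4. Col4a6 was 21.6, 30.2, 19, 36.5 and 39.5 CPM in KO LPS+IFNγ and 39.5, 45.9, 38.3, 31.9 and 50.8 CPM in KO control libraries. In het cells Col4a6 was 28.4, 32.9, 38.7, 43.4 and 41 CPM with LPS+IFNγ and 56.5, 43.6, 30.3, 71.8 and 35.4 CPM in control. Unlike the other type IV chains it was highest in the het control libraries of animals 1 and 9.

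Among the fibrillar collagens, Col1a1 and Col1a2, the chains of type I collagen, separated the animals more than the groups. Col1a1 was 535, 625, 6162, 2912 and 450 CPM in KO LPS+IFNγ and 699, 1113, 654, 2929 and 510 CPM in KO control libraries. It was 19.7, 483, 869, 230 and 2616 CPM in het LPS+IFNγ and 30, 533, 7619, 290 and 2611 CPM in het control libraries. The libraries of animal 7 were highest at 6162 and 7619 CPM, the 4 libraries of animals 4 and 8 lay between 2611 and 2929 CPM, and the other 14 between 19.7 and 1113 CPM. Col1a2 was 362, 441, 5202, 1650 and 458 CPM in KO LPS+IFNγ and 367, 624, 322, 1953 and 417 CPM in KO control libraries. In het cells Col1a2 was 10.7, 323, 611, 194 and 1577 CPM with LPS+IFNγ and 13.4, 252, 5184, 208 and 1616 CPM in control. The same animals were high and low, and the highest library was 386 times the lowest for Col1a1 and 486 times for Col1a2.

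Col3a1, the chain of type III collagen, had the widest range of the abundant members, 651-fold. It was 63, 67.7, 1029, 312 and 236 CPM in KO LPS+IFNγ and 91.8, 187, 93.4, 310 and 277 CPM in KO control libraries. In het cells Col3a1 was 2.43, 53, 128, 18 and 437 CPM with LPS+IFNγ and 8.89, 79.5, 1585, 33.7 and 374 CPM in control. Animal 7 was again highest and animals 1 and 9 lowest. Col5a1 and Col5a2 encode type V chains, which nucleate type I fibrils. Col5a1 was 455, 562, 1589, 783 and 301 CPM in KO LPS+IFNγ and 720, 808, 895, 804 and 536 CPM in KO control libraries. It was 86.4, 678, 701, 63.4 and 1119 CPM in het LPS+IFNγ and 108, 924, 2007, 122 and 868 CPM in het control libraries. The groups overlapped, and in both het groups animals 1 and 9 were lowest. Col5a2 was 190, 233, 588, 311 and 168 CPM in KO LPS+IFNγ and 234, 348, 326, 306 and 204 CPM in KO control libraries. In het cells Col5a2 was 35.1, 227, 294, 64.2 and 373 CPM with LPS+IFNγ and 56.2, 327, 730, 146 and 297 CPM in control. Its groups overlapped in both genotypes.

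Col11a1, a type XI chain best known from cartilage, was 33.3, 50.5, 308, 186 and 24.5 CPM in KO LPS+IFNγ and 92.5, 163, 177, 188 and 91 CPM in KO control libraries. It was 1.76, 56, 98.1, 8.5 and 193 CPM in het LPS+IFNγ and 6.81, 163, 497, 24.2 and 125 CPM in het control libraries. Animal 7 held the highest value in both groups it belongs to, and the groups overlapped. Col27a1, another fibrillar chain, was 5.58, 1.3, 2.47, 11.3 and 0.995 CPM in KO LPS+IFNγ and 9.45, 5.06, 2.75, 8.97 and 2.84 CPM in KO control libraries. In het cells Col27a1 was 8.52, 1.36, 4.17, 1.78 and 6.59 CPM with LPS+IFNγ and 31.9, 4.15, 7.21, 9.99 and 7.63 CPM in control, with the highest value in the het control library of animal 1. Animals 1 and 9 held the highest control values of Col27a1. Of the remaining fibrillar members, Col5a3 ranged from 8.7 to 252 CPM, Col2a1, the cartilage collagen, from 0.138 to 2.68 CPM, and Col24a1 was at most 0.82 CPM and was not tested. Col11a2, another type XI chain, was 0.748, 1.13, 1.1, 0.583 and 1.7 CPM in KO LPS+IFNγ and 0.763, 0.381, 0.82, 0.69 and 2.4 CPM in KO control libraries. In het cells Col11a2 was 0.0609, 0.764, 1.56, 0.127 and 1.73 CPM with LPS+IFNγ and 0.138, 1.15, 0.601, 0.927 and 0.891 CPM in control. All groups of Col11a2 overlapped.

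**Figure D2:**
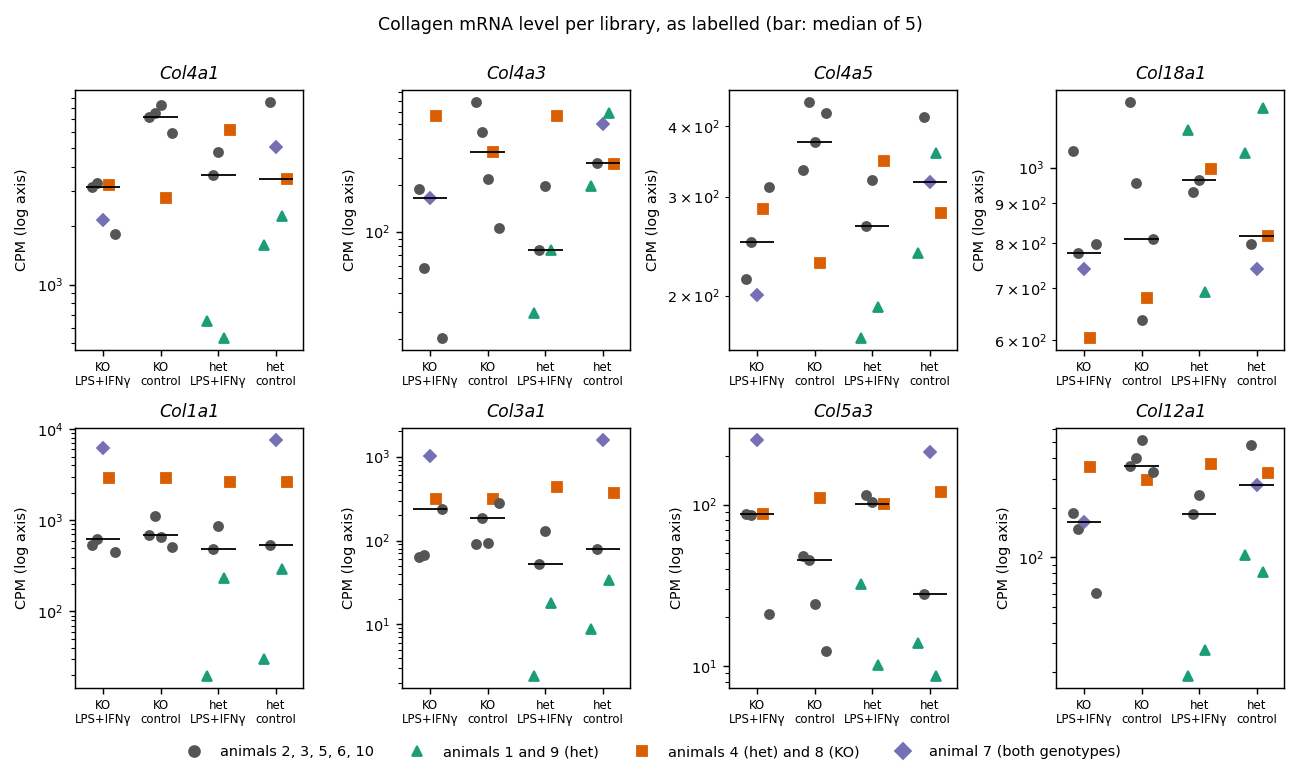
CPM (log axis) of 8 collagens in every library, by group as labelled, with a bar at the median of the 5 libraries and the animals that stood apart marked. Col1a1 and Col3a1 follow the animal rather than the group, whereas Col18a1 stays between 604 and 1215 CPM in all 20 libraries.

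Of the other collagens, Col18a1, a basement membrane proteoglycan and the precursor of endostatin, was the most abundant and the steadiest, with a 2.01-fold range. It was 1051, 777, 739, 604 and 797 CPM in KO LPS+IFNγ and 1215, 954, 637, 679 and 809 CPM in KO control libraries. In het cells Col18a1 was 1118, 929, 965, 692 and 997 CPM with LPS+IFNγ and 1043, 797, 739, 1195 and 815 CPM in control. All groups overlapped. Col12a1, a chain that decorates fibrils, was 186, 149, 164, 355 and 60.4 CPM in KO LPS+IFNγ and 360, 398, 515, 295 and 330 CPM in KO control libraries. It was 19.1, 184, 239, 27.3 and 368 CPM in het LPS+IFNγ and 103, 479, 275, 81.6 and 326 CPM in het control libraries. Without animal 8, every KO control library exceeded every KO LPS+IFNγ library.

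Type VI collagen forms beaded filaments around cells. Col6a1 was 31.8, 54.5, 98.7, 30.6 and 72.4 CPM in KO LPS+IFNγ and 69.6, 44.9, 85.9, 27.4 and 130 CPM in KO control libraries. It was 19.1, 49.4, 32.8, 6.28 and 80 CPM in het LPS+IFNγ and 76.1, 66.4, 163, 19.1 and 58.4 CPM in het control libraries. Col6a2 was 3.68, 13.3, 21.6, 6.92 and 20.1 CPM in KO LPS+IFNγ and 10.9, 8.05, 23.1, 4.71 and 42.8 CPM in KO control libraries. Groups overlapped for both chains. In het cells Col6a2 was 3.04, 11.2, 4.3, 1.01 and 22.2 CPM with LPS+IFNγ and 15.6, 17.1, 45.5, 2.63 and 13.4 CPM in control. Per kilobase Col6a1 exceeded Col6a2 by 5.79 to 16.4 times, and Col6a3, the third chain of the classical heterotrimer, was at most 5.18 CPM.

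Col7a1, the anchoring fibril collagen, was 21.4, 3.8, 26.7, 44.9 and 1.87 CPM in KO LPS+IFNγ and 57.2, 22.8, 7.21, 23.1 and 6.41 CPM in KO control libraries. In het cells Col7a1 was 6.09, 3.88, 14.2, 1.4 and 31.2 CPM with LPS+IFNγ and 18.2, 8.93, 53.8, 12.9 and 20.9 CPM in control. The library of animal 8 was highest among those labelled KO LPS+IFNγ, and the groups overlapped. Col8a1, a network-forming chain of vessel walls and Descemet's membrane, was 94, 80.1, 101, 30.2 and 53 CPM in KO LPS+IFNγ and 14.8, 35.3, 51.8, 51.9 and 48.9 CPM in KO control libraries. It was 159, 83.5, 110, 18.1 and 46.5 CPM in het LPS+IFNγ and 4.83, 43.2, 105, 7.46 and 62 CPM in het control libraries. Animal 1 had the highest stimulated and the lowest control value. Col16a1 ranged from 7.93 to 52.8 CPM and Col15a1, a relative of Col18a1, from 0.356 to 12.6 CPM. Col20a1, Col9a3, Col14a1, Col22a1 and Col10a1 were tested but sparse, at most 2.02 CPM in any library.

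The stimulus was tested first in all 20 libraries as labelled, with edgeR's quasi-likelihood test over 14568 genes. No gene passed an adjusted p under 0.05 in KO cells or in het cells (0%), and so 0 of the 32 tested collagens did. At an unadjusted p under 0.05, 3 collagens were counted for LPS+IFNγ against control in KO cells and 2 in het cells, among 1307 and 1981 of all genes. DESeq2 called 1 collagen in het cells and 0 in KO cells. Its share of all genes called is not given beside these counts, so they are not read as particular to collagens. All 6 type IV chains had negative log2 differences in both genotypes, from -1.20 to -0.47 in KO cells and from -0.95 to -0.30 in het cells, beside a median over all genes of -0.0027 in KO cells and -0.02 in het cells. Col4a1 averaged 2728 ± 698 CPM in KO LPS+IFNγ and 6359 ± 2175 CPM in KO control libraries (SD, n = 5 each), a log2 difference of -1.20 ± 0.58 (SE) with an adjusted p = 0.569. In het cells it averaged 3152 ± 2503 CPM with LPS+IFNγ and 4195 ± 2794 CPM in control (SD, n = 5 each), a log2 difference of -0.41 ± 0.57 (SE) with an adjusted p = 0.813. With these labels no stimulus difference of a collagen passed the threshold by edgeR.

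Without animals 4 and 8, 16 libraries were left and 843 of 14630 genes were called in KO cells (5.76%; 4.81% higher and 0.95% lower) and 1046 in het cells (7.15%; 5.67% higher and 1.48% lower). Col28a1, a von Willebrand factor domain collagen, rose in both genotypes, with adjusted p = 0.00678 in KO cells and 0.00219 in het cells, and Col23a1, a transmembrane collagen, rose in KO cells (log2 difference 2.43 ± 0.65 SE, adjusted p = 0.0382). The Col23a1 call was lost when any 1 of 8 of the 16 libraries was left out (adjusted p = 0.0512 to 0.156). These were the KO control libraries of animals 3, 5 and 6, the KO LPS+IFNγ libraries of animals 6, 7 and 10, the het LPS+IFNγ library of animal 5 and the het control library of animal 7. A filter of at least 1 CPM in 10 libraries leaves Col28a1 and Col23a1 out before testing, so its count of 0 in both genotypes says nothing of these calls. Col28a1 and Col23a1 were the 2 collagens called in KO cells, and Col28a1 the 1 called in het cells, of 32 tested. Both genes are sparse and passed the filter on low counts only through their LPS+IFNγ libraries, which limits these calls. Neither type IV nor fibrillar chains passed. The choice to set these animals apart came from their interferon genes, with earlier results of the same data known.

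Col28a1 was 1.61, 1.66, 2.3, 0.0647 and 1.52 CPM in KO LPS+IFNγ and 0, 0.0544, 0.293, 0.439 and 0.0728 CPM in KO control libraries. In het cells Col28a1 was 0.426, 1.42, 1.83, 0.381 and 0.157 CPM with LPS+IFNγ and 0, 0, 0.0546, 0 and 0.0557 CPM in control. Outside animals 4 and 8 every stimulated library exceeded every control library of its genotype. The control libraries were too low for the filter on low counts, so Col28a1 was tested only through its LPS+IFNγ libraries. Summed as labelled, KO cells had 125 counts with LPS+IFNγ and 14 in control, a ratio of 8.63 (exact 95% interval 4.95 to 16.2), and het cells had 70 and 2 counts, a ratio of 38.3 (10.2 to 323). Without animals 4 and 8 the sums were 124 with LPS+IFNγ and 7 in control for KO cells and 67 and 1 for het cells. The intervals cover counting error only, and 1 control count leaves the het ratio between 13.3 and 3063.

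Col23a1 was 1.55, 2.55, 2.74, 0.0647 and 6.44 CPM in KO LPS+IFNγ and 0.411, 0.218, 0.644, 0.314 and 1.24 CPM in KO control libraries. In het cells Col23a1 was 0.243, 2.02, 0.848, 0.952 and 0.837 CPM with LPS+IFNγ and 0.276, 0.51, 0.328, 0.463 and 2.84 CPM in control. In KO cells all stimulated libraries other than that of animal 8 exceeded all control libraries, while in het cells the groups overlapped. As for Col28a1, the control libraries were too low for the filter on low counts. Col23a1 was therefore tested only through its LPS+IFNγ libraries, in the blocked test below as well. As labelled the KO sums were 231 counts with LPS+IFNγ and 44 in control (ratio 5.07, 3.66 to 7.17), and the het sums 85 and 80 (1.16, 0.847 to 1.60). Without animal 4 the het sums were 69 and 29 (2.71). The difference between the responses of KO and het cells was not called for Col23a1 or any other collagen.

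Because 2 libraries of each animal exist, the stimulus could also be compared within animals. The test used 6 animals (3, 6 and 10 for KO; 1, 2 and 9 for het) with the animal as a block, leaving out animals 4 and 8 and the 2 animals listed under both genotypes. In KO cells 1672 of 14776 genes were called (11.3%; 6.84% higher and 4.47% lower), and of 30 tested collagens 10 fell and 1, Col23a1, rose (log2 difference 2.10 ± 0.42 SE, adjusted p = 0.0186). In het cells 2388 genes were called (16.2%; 9.26% higher and 6.9% lower), and 15 collagens fell and 1, Col28a1, rose. All 10 that fell in KO cells also fell in het cells. They were Col4a1, Col4a2, Col4a3, Col4a4 and Col4a5 of the basement membrane class, Col5a1, Col11a1 and Col27a1 of the fibrillar class, and Col7a1 and Col12a1 of the others. Those called in het cells alone were Col3a1, Col4a6, Col5a2, Col6a1 and Col6a2. These calls rest on the block and on the choice of animals: without the block 0 collagens were called in KO and 1 in het cells, and with animals 4 and 8 included, block kept, 0 in both (0% of all genes). The share of all genes called without the block is not given beside its counts.

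The type IV chains had a median log2 difference of -1.32 over 6 chains in KO cells and -1.53 in het cells, beside -0.03 over all genes in each genotype. Col4a3 fell by 2.06 ± 0.21 (SE) on the log2 scale in KO cells (adjusted p = 0.00101) and had a log2 difference of -2.49 ± 0.21 in het cells (adjusted p = 0.000407). Col4a1 fell in both, with -1.41 ± 0.20 in KO cells (adjusted p = 0.00471) and -1.50 ± 0.20 in het cells (adjusted p = 0.00347). Col4a6 was called in het cells (-0.68 ± 0.14, adjusted p = 0.0214) and missed the threshold in KO cells (-0.52 ± 0.15, adjusted p = 0.0615). Among fibrillar chains Col11a1 fell in both, with -1.73 ± 0.11 in KO cells (adjusted p = 0.000143) and -1.60 ± 0.13 in het cells (adjusted p = 0.000272). The type I chains did not pass, with Col1a1 at -0.21 ± 0.11 in KO cells and -0.33 ± 0.11 in het cells, and Col1a2 at 0.19 ± 0.14 and 0.02 ± 0.15 in the same order. Col12a1 fell in both, with -1.73 ± 0.30 in KO cells and -1.76 ± 0.30 in het cells (adjusted p = 0.0113 and 0.0101). In Col28a1 the 3 het control libraries held 0 counts against 39 with LPS+IFNγ, at least 14.6-fold higher against a floor of 3 counts over the group. The KO count depends on single animals: without animal 3 it was 4 collagens, without animal 6 it was 3, without animal 10 it was 3 and without animal 1 it was 17. The share of all genes called is not set beside these counts, so their changes are not read as particular to collagens.

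**Figure D3:**
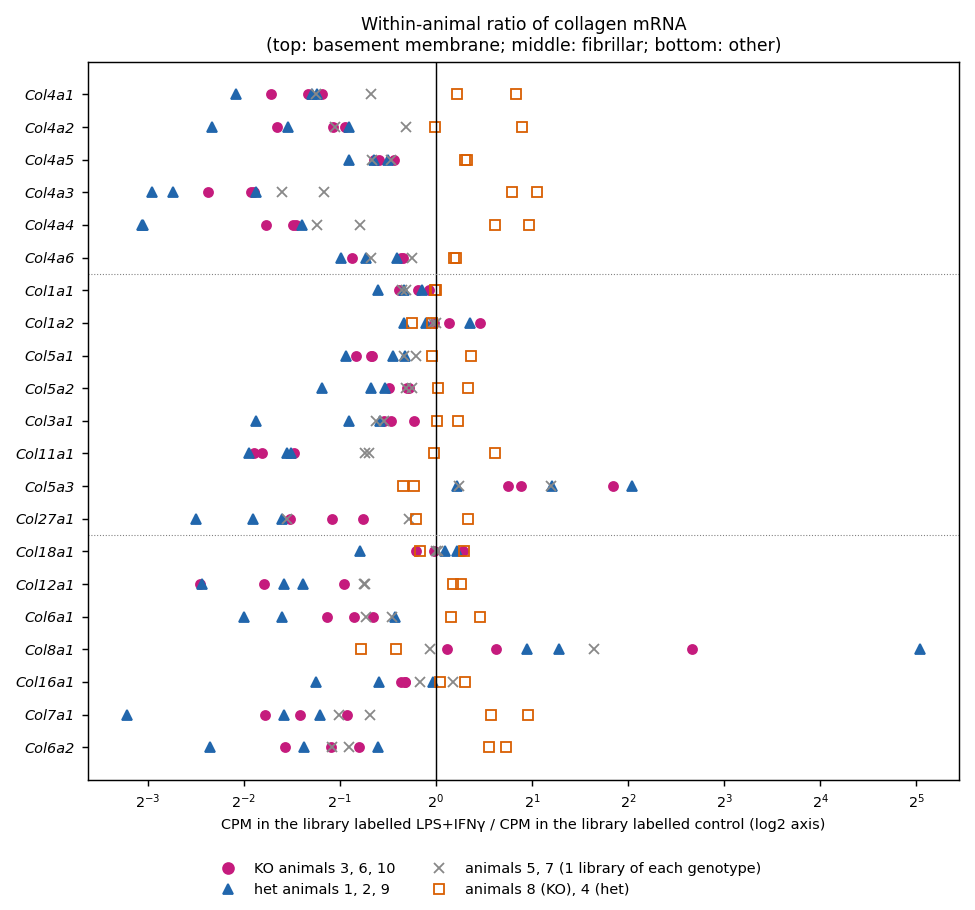
Ratio of CPM in the library labelled LPS+IFNγ to that labelled control of the same animal (log2 axis) for the 21 collagens with at least 10 counts in every library, 1 mark per animal. In the 6 animals of the blocked test all type IV ratios lie below 1, and in animal 4 all 6 lie above 1.

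The ratio of the library labelled LPS+IFNγ to that labelled control within each animal gives the response of each animal without a model. Of 21 collagens with at least 10 counts in every library, 17 were below 1 in all 6 animals and 2, Col5a3 and Col8a1, above 1 in all 6. The same count was not made over all genes, so it is not read as particular to collagens. In the blocked test 7994 of 14776 genes had negative log2 differences in KO cells and 7916 in het cells. Of the 17, Col1a1 and Col16a1 were called in neither genotype, and Col23a1 and Col28a1 are too sparse to be among the 21. Col4a1 ratios were 0.237 to 0.441 and Col4a3 ratios 0.129 to 0.273. Col1a1 ratios, at 0.657 to 0.954, lay nearer to 1, and Col18a1 ratios lay on both sides (0.579 to 1.22). Col5a3, a type V chain, was 1.17 to 4.13 times its control level, but was not called (adjusted p = 0.0709 in KO and 0.0517 in het cells). Col8a1 ratios ran from 1.09 to 32.8, the highest in animal 1. Animals 5 and 7, whose 2 libraries carry different genotype labels, had all 6 type IV ratios below 1. In animal 4 all 6 were above 1 (Col4a1 1.78, Col4a3 2.07), and in animal 8 5 of 6 were (Col4a1 1.16, Col4a3 1.73), the animals in which Nos2 was high in the library labelled control.

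Summed markers of other cells also differed between the 2 libraries of an animal. The summed podocyte markers were at 0.458 to 0.632 of their control level in the library labelled LPS+IFNγ in the 6 animals, below 1 in animals 5 and 7 as well, and at 1.36 in animal 4 and 1.26 in animal 8. Col4a3 and Col4a4, chains that podocytes are known to make, were likewise below 1 in those 8 animals and above 1 in animals 4 and 8. The smooth muscle and pericyte, leukocyte and proximal tubule sums went the same way in these animals, so the pattern is not particular to podocyte markers. Of the 6 podocyte markers 4 reached 1 CPM, with group ranges of 196 to 320 CPM in KO LPS+IFNγ, 245 to 585 CPM in KO control, 97.4 to 416 CPM in het LPS+IFNγ and 198 to 492 CPM in het control libraries. Synpo (27.9 to 433 CPM) and Wt1 (9.45 to 149 CPM) led them, while Nphs1, a defining slit diaphragm gene, was at most 0.652 CPM.

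The summed smooth muscle and pericyte markers, of which 9 of 9 reached 1 CPM, were at 0.41 to 0.695 of control in the 6 animals, and at 1.04 in animal 4 and 1.23 in animal 8. By group as labelled they ran from 2920 to 9429 CPM in KO LPS+IFNγ, 5469 to 13150 CPM in KO control, 303 to 10280 CPM in het LPS+IFNγ and 493 to 13660 CPM in het control libraries. Leukocyte sums (0.355 to 0.8), proximal tubule sums (0.325 to 0.814) and endothelial sums (0.626 to 0.943) were also below control in all 6 animals. In animals 4 and 8 the leukocyte sums were at 2.36 and 1.59, the proximal tubule sums at 1.37 and 1.24 and the endothelial sums at 0.732 and 1.03. Tubular epithelium sums lay on both sides of control (0.864 to 1.24, below 1 in 2 of 6 animals). The fibroblast sum without collagens stayed near its control level (0.915 to 1.09, below 1 in 3 of 6 animals). Of its 16 markers 10 reached 1 CPM. Fbln2 (326 to 2005 CPM), Pdgfrb (0.304 to 301 CPM), Twist2 (9.89 to 28.8 CPM), Fbln1 (5.01 to 17.3 CPM) and Thy1 (0.103 to 9.32 CPM) were the highest, and the other 11, among them Pdgfra, Dcn and Lum, were at most 2.62 CPM. Fbln2 made up most of the sum. Pdgfrb alone was 11.7, 41.6 and 34 CPM with LPS+IFNγ and 31.3, 149 and 139 CPM in control in animals 3, 6 and 10. In animals 1, 2 and 9 it was 0.304, 37.4 and 4.57 CPM with LPS+IFNγ and 1.93, 114 and 10.6 CPM in control. By label, Pdgfrb was also lower with LPS+IFNγ in animals 5 and 7, and higher in animals 4 and 8. The other fibroblast markers were not compared singly. The part of these markers in the collagen differences was not tested.

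Genotype was compared within each state. As labelled, no gene was called for KO against het in LPS+IFNγ or in control libraries (0%), nor for the difference of the responses (0%), by edgeR, and at an unadjusted p under 0.05 there were 0, 2 and 0 collagens of 32 in the same order, beside 366 (2.51%), 499 (3.43%) and 138 (0.947%) of all genes. Limma-voom and DESeq2 called 0 collagens in these 3 comparisons as well. Col4a1 averaged 2728 ± 698 CPM in KO and 3152 ± 2503 CPM in het LPS+IFNγ libraries (SD, n = 5 each; log2 difference -0.20 ± 0.57 SE). In control libraries it averaged 6359 ± 2175 CPM in KO and 4195 ± 2794 CPM in het cells (log2 difference 0.60 ± 0.57 SE). Col1a1 averaged 2137 ± 2475 CPM in KO and 844 ± 1040 CPM in het LPS+IFNγ libraries, and 1181 ± 1003 CPM in KO and 2217 ± 3189 CPM in het control libraries. The higher mean in each state was in the group that holds a library of animal 7. The log2 difference of Col1a1 was 1.36 ± 1.19 (SE) with LPS+IFNγ and -0.91 ± 1.18 in control, and that of Col18a1 was -0.23 ± 0.19 with LPS+IFNγ and -0.09 ± 0.19 in control. Without animals 4 and 8 the 3 comparisons again gave 0 called collagens. In the blocked test all 6 type IV differences of responses were positive, KO minus het, from 0.09 to 0.91. There 0 collagens were called by edgeR (0% of all genes), with 1 of 30 at an unadjusted p under 0.05, beside 429 (2.9%) of all genes. As labelled the signs of the type IV differences were mixed.

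Culture state was described by the level of proximal tubule markers, scored per library as a mean log2(CPM + 1). The mean was taken over the 11 of 18 listed genes that reached 1 CPM in any library. Over the 10 control libraries, 2131 of 13670 genes had a slope on that score at an adjusted p under 0.05 with genotype in the model (15.6%; 7.67% positive and 7.92% negative). Of the 25 collagens tested, 6 fell with the score, namely Col5a1 (slope -1.03 ± 0.20 SE, log2 per unit of score), Col5a2 (-0.70), Col3a1 (-1.68 ± 0.49), Col11a1 (-1.34 ± 0.30), Col12a1 (-0.59 ± 0.09) and Col8a1 (-1.15 ± 0.18). Col27a1 rose with it (0.61 ± 0.15). The type IV chains were not called, with slopes from -0.50 to 0.21. The score was high in animals 1 and 9 (3.06 to 5.04) and lower in all other libraries (0.974 to 2.24), and without the 2 libraries farthest from the median 0 collagens were called and the slopes of Col5a1, Col5a2, Col3a1 and Col11a1 turned positive. The relation rests on these libraries: without the het control library of animal 1 the count was 1, and without that of animal 9 it was 3. The leukocyte and smooth muscle sums given above move with the same 2 animals, and their part was not tested. In LPS+IFNγ libraries 770 of 13730 genes were called (5.61%; 2.7% positive and 2.91% negative), and Col6a1 (-1.39 ± 0.30), Col6a2 (-1.76 ± 0.43) and Col11a2 (-1.87 ± 0.43) fell with the score among 29 collagens. Leaving out 1 library gave counts of 0 to 4, with 0 without the library of animal 1, 2, 3, 8 or 9, and without animals 4 and 8 together the count was 0.

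**Figure D4:**
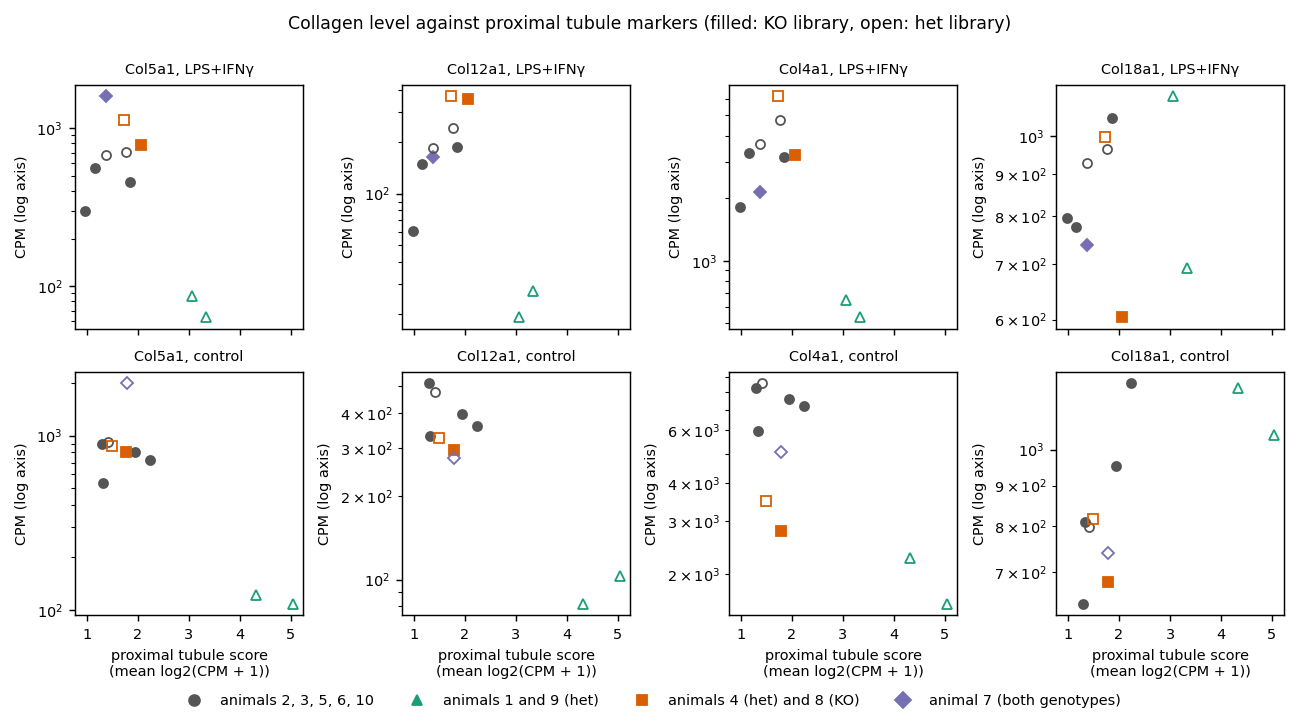
CPM (log axis) of Col5a1, Col12a1, Col4a1 and Col18a1 against the proximal tubule score, LPS+IFNγ libraries above and control libraries below, 10 libraries each. The score is the mean log2(CPM + 1) of the 11 of 18 markers that reached 1 CPM in any library. Animals 1 and 9 lie apart on the horizontal axis, and the other libraries fall within 0.974 and 2.24.

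The same was done with a score over 10 of the 16 fibroblast markers that are not collagens, those that reached 1 CPM in any library. Fbln2 was the most abundant of them (326 to 2005 CPM). In control libraries 762 of 13670 genes were called (5.57%; 3.09% positive and 2.48% negative). Of the collagens Col3a1 (slope 4.25 ± 0.67 SE), Col11a1 (3.33 ± 0.68), Col8a1 (3.15 ± 0.42), Col5a1 (2.87 ± 0.47) and Col5a2 (1.82 ± 0.42) rose with it, all 5 of 25 tested in the positive direction. In LPS+IFNγ libraries 5 of 13730 genes were called (0.0364%) and 0 of 29 collagens, with 16 at an unadjusted p under 0.05 by edgeR, beside 2423 (17.6%) of all genes. Limma-voom called 1 collagen, and its share of all genes called is not given beside this count. Here again animals 1 and 9 lay apart, with scores of 2.06 to 2.23 against 2.66 to 3.53. Without the 2 libraries farthest from the median score the count was 0 in control and 5 with LPS+IFNγ. Leaving out 1 library gave 1 (without the het control library of animal 7) to 8 (without the KO control library of animal 10) in control, and up to 8 with LPS+IFNγ (without the KO library of animal 7).

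Pairs of collagen chains, of the same or of different molecules, were compared across libraries by Pearson's r and Spearman's rho of log2(CPM + 1). With 10 libraries per state there were 9 pairs and 18 relations in all, with permutation p-values adjusted over the 18. Of these 12 passed the threshold, and 14 did by r without the 2 libraries farthest from the median of the first chain. Col4a1 and Col4a2 had r = 0.984 and rho = 0.964 in LPS+IFNγ libraries (permutation p = 2e-05, adjusted p = 7.2e-05) and r = 0.991 and rho = 0.952 in control libraries (permutation p = 4e-05, adjusted p = 0.000103). The value 2e-05 is the smallest the permutations can give. Without the 2 libraries farthest from the median the 2 values of r were 0.921 and 0.977. Col1a1 and Col1a2 had r = 0.993 with LPS+IFNγ and 0.994 in control, and Col4a3 and Col4a4 0.952 and 0.967. The type V, type VI and Col1a1 with Col3a1 pairs had r between 0.930 and 0.982.

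The X-linked neighbours Col4a5 and Col4a6, which have separate promoter windows, had r = 0.546 with LPS+IFNγ (permutation p = 0.115) and 0.276 in control (permutation p = 0.44). Without the libraries of animals 1 and 9 the LPS+IFNγ value was 0.972, and the control value without its 2 farthest libraries was 0.462. Col15a1 and Col18a1 had r = -0.0782 with LPS+IFNγ and -0.216 in control. Col1a1 and Col4a1, of different classes, had r = 0.667 with LPS+IFNγ (permutation p = 0.0514) and 0.373 in control. Without the 2 farthest libraries of each state the LPS+IFNγ value was 0.699 (permutation test, adjusted p = 0.0262) and the control value -0.238. The libraries of an animal appear once in each state, and all levels share depth and scaling.

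Genes that fold, process and bind collagen were followed as 3 lists in the blocked test of 6 animals, where 11.3% of all genes were called in KO and 16.2% in het cells. With animals 4 and 8 included, 0 genes of the 3 lists were called in either genotype by edgeR. At an unadjusted p under 0.05 there were 0, 0 and 0 (folding, processing and receptors) in KO and 5, 1 and 0 in het cells. Of all 14668 genes tested in that fit, 643 passed the same unadjusted limit in KO cells and 1615 in het cells. The higher het counts are therefore not read as particular to these lists. Of 18 chain folding and modification genes, 17 were tested, of which 1 rose and 3 fell in KO cells and 2 rose and 4 fell in het cells. The prolyl 3-hydroxylases P3h2 (-1.46 in KO and -1.31 in het cells) and P3h1 (-0.35 and -0.48) fell in both, as did Fkbp10, a collagen chaperone (-0.39 and -0.60), and the prolyl 4-hydroxylase subunit P4ha2 rose in both (0.53 and 0.62, all log2 differences). Plod3, a lysyl hydroxylase, rose (0.66) and Mia3, needed for collagen export, fell (-0.36) in het cells. Of 13 propeptide removal and crosslinking genes, 12 were tested and only Pcolce2, an enhancer of procollagen C-proteinase, was called, with -1.18 in KO and -0.93 in het cells. Of 10 receptor and uptake genes, 9 were tested, and the integrin subunits Itga1 (-1.21 and -0.94) and Itga11 (-0.81 and -1.06) fell in both genotypes, while Itga2 (2.29) and the discoidin receptor Ddr2 (1.38) rose in het cells. The difference of the responses was not called for any of these genes.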

How the data were processed

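The deposited table holds estimated counts per gene made by the authors from libraries of a directional kit, per the labels' protocols. Salmon 1.10.2, DESeq2 1.45.3, FastQC 0.11.9, R 4.4.1 and the build GRCm39 are listed with no role in the submitters' processing notes. No source used here gives the strand setting. Gene IDs were joined to GENCODE M21 symbols (92% of 55891), and exon lengths were taken from that annotation.

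Counts were rounded, filtered by filterByExpr and tested with edgeR 4.0.16 (TMM, robust quasi-likelihood fit, Benjamini-Hochberg adjustment over all genes tested, called under 0.05) in R 4.3.3. Limma 3.58.1 (voom) and DESeq2 1.42.0 were alternatives. Correlations and figures used Python 3.11.15, SciPy 1.17.1, statsmodels 0.14.6 and matplotlib 3.10.9. The code of the tests was run on simulated counts with known changes, a fixed spread and no differences between animals. Those settings are unlike these libraries, so the run does not show how the tests behave here. SE is the log2 difference divided by the root of F. Depth was 12899528 to 20411411 counts per library, and intervals and floors (3 counts) cover counting error only.

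The members, the lists and the choice of libraries were chosen with earlier results of these data known. Values in every library are given for the 12 members with the highest mean CPM and for members past the threshold in any fit. Animal numbers in the labels pair libraries of the same animal. Deviations from group means correlated at 0.405 to 0.623 in the 6 animals of the blocked test, 0.168 and 0.381 in animals 5 and 7, and -0.207 and -0.298 in animals 4 and 8. Nothing else in the labels says how separate the cultures were, so each p-value reflects spread among libraries, part of which may be technical.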

Additional observations from a re-analysis of the deposited data

Results flagged for a closer look

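In groups of 5 libraries, 1 library stood far from the others by Dixon's outlier ratio in 7 of 48 group and gene combinations. The cut-off flags about 1 of 20 groups of normally distributed values. These CPM values are skewed and the genes correlated, so that rate is no measure of chance here. The KO LPS+IFNγ library of animal 7 was highest for Col1a2 (5202 CPM, next 1650 CPM) and Col3a1 (1029 CPM, next 312 CPM), and the het control library of animal 7 for Col3a1 (1585 CPM, next 374 CPM). The library labelled KO control of animal 8 was lowest for Col4a2 (1357 CPM, next 3520 CPM) and highest for Col1a1 (2929 CPM, next 1113 CPM) and Col1a2 (1953 CPM, next 624 CPM). The library labelled het LPS+IFNγ of animal 4 was highest for Col3a1 (437 CPM, next 128 CPM).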

How the results depend on the processing

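As labelled, the counts of called collagens for KO against het and for the difference of the responses were 0 under all alternatives run. For the stimulus as labelled (0 in KO and 0 in het cells), DESeq2 gave 1 in het cells, dropping animals 4 and 8 gave 2 in KO and 1 in het cells, and the replicate block by animal without animals 4, 5, 7 and 8 gave 11 and 16. Leaving out 1 library gave 0 to 0 in KO and 0 to 2 in het cells. Without animals 4 and 8 (2 and 1), a filter of 1 CPM in 10 libraries, which leaves Col28a1 and Col23a1 out before testing, gave 0 and 0. In the same 16 libraries DESeq2 gave 4 in het cells, leaving out animals 1 and 9 as well gave 7 in KO cells and animal 7 as well gave 1. There the replicate block by title number gave 4 and 6, the block by animal 11 and 16, and leaving out 1 library 1 to 2 and 1 to 2. In the test blocked by animal (11 and 16), dropping the block gave 0 and 1, adding animals 4 and 8 gave 0 and 0, and leaving out 1 animal gave 3 to 17 and 11 to 15. For slopes on the proximal tubule score in control (7), limma-voom gave 11, leaving out the 2 farthest libraries 0 and leaving out 1 library 1 to 8. With LPS+IFNγ (3) the median over markers gave 1, dropping animals 4 and 8 gave 0, dropping the 2 farthest 1 and leaving out 1 library 0 to 4. For the fibroblast score in control (5) the median gave 2, a model without genotype 8, dropping animals 4 and 8 gave 3, the 2 farthest 0 and 1 library 1 to 8. With LPS+IFNγ (0) limma-voom gave 1, no genotype 8, dropping the 2 farthest 5 and leaving out 1 library 0 to 8. Without the 2 libraries farthest on the proximal tubule score, the control slopes turned to 0.46 for Col5a2, 0.72 for Col3a1, 0.45 for Col5a1 and 0.47 for Col11a1, and without its own 2 farthest libraries r of Col1a1 with Col4a1 in control was -0.238. The causes were not tested. Shares of all genes called are not set beside the counts under these alternatives, so changes in the counts are not read as particular to collagens. Over single collagens and pairs, 593 values kept direction and side of the threshold, 195 no longer passed, 8 newly passed and 5 turned sign. Counts of 0 allow up to 0.147 to 0.233 CPM per library, which limits the sparse members.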
